A study of Bos taurus with 23 samples.

Results

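COL26A1, MYH10, PPIC and TMEM45A code for a matrix protein, a cytoskeletal motor, a protein folding enzyme and a membrane protein of the bovine endometrium, the inner lining of the uterus. They were taken from a list of 50 genes that the study had selected for separating pregnant from non-pregnant recipients across several breeds, where all 4 were listed as higher in pregnant animals. Part of the cows described here had entered that selection, so the difference by pregnancy status is described for these genes without a test. The 4 genes are 4 of the 24616 genes in the count files, and all 4 were among the 14852 genes that passed the filter on low counts.

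RNA-seq was performed on endometrial biopsies from 23 lactating Holstein cows, with 1 library per cow. The biopsy was taken on days 6 to 8 of the oestrous cycle, in dioestrus. In the following cycle each cow received 1 embryo produced in vitro, and pregnancy status was read at slaughter on days 26 to 47. By this later status 12 cows were pregnant and 11 were non-pregnant. Parity was 1 in 12 cows, 2 in 5 cows and 3 in 6 cows, and the time from the last calving to transfer ran from 128 to 274 days with a median of 174 days. First-parity cows numbered 7 in the pregnant group and 5 in the non-pregnant group, and cows of parity 2 or more numbered 5 and 6. The biopsies thus preceded the transfer, and status labels what happened to the cow afterwards.

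In dioestrus the endometrium is under progesterone from the corpus luteum, and its stroma and glands are remodelled before an embryo could attach. The stroma is built of fibroblasts in a collagen-rich extracellular matrix, whose proteins are folded in the secretory pathway before they leave the cell. The shape and tension of these cells depend on actin filaments pulled by non-muscle myosin motors. A biopsy holds stroma, epithelium, vessels and blood cells together, so more cells of a type and more RNA per cell cannot be told apart for any of the 4 genes.

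Counts in genes ranged from 6920879 in pregnant 21 to 27357249 in non-pregnant 9. Of the 23 libraries, 4 (non-pregnant 4 and 6, pregnant 22 and 23) stood apart on the first principal component of all expressed genes, which held 42.3% of the variance. These 4 had scores of at least 57.1, against 10.5 at most in the other 19. A further 2 libraries, pregnant 20 and 21, had 75.5% and 76.7% of their reads outside genes, where no other library exceeded 59.6%. Here and below, such shares are of the reads placed in a gene, outside genes or called ambiguous, and not of all reads. Results are given with and without these libraries. The values below are CPM, read counts scaled to library size after TMM, which are not corrected for gene length, so they are compared between cows and not between genes.

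COL26A1 (ENSBTAG00000011818) codes for a secreted collagen with an EMI domain, formerly known as EMID2. It was the most variable of the 4 genes, with 19.1 ± 13.9 CPM (SD, n = 23), a coefficient of variation of 72.8% and a 47.3-fold range between cows. In the 12 pregnant cows the lowest value was 1.40, the median 25.4 and the highest 46.6 CPM, and in the 11 non-pregnant cows the values were 0.986, 14.5 and 32.1 CPM. The groups overlapped over most of their range, with 4 pregnant cows above every non-pregnant cow.

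The COL26A1 values separated into a low and a high set of cows. The 5 lowest values were 0.986 CPM in non-pregnant 6, 1.07 in non-pregnant 19, 1.40 in pregnant 22, 1.86 in pregnant 23 and 2.18 in non-pregnant 4. The next cow, non-pregnant 2, was at 7.78 CPM, 3.57-fold higher, and this was the widest step between neighbours. All 4 libraries that stood apart on the first principal component were in the low set, and non-pregnant 19 was the only one of the 5 that was not apart. The counts behind the low values were 20 to 35 reads, against a median of 335 reads over all cows, so they are less precise than the rest.

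On the log2 scale the mean of COL26A1 in the 4 libraries apart was lower than in the other 19 by a difference of -3.47, or 11.1-fold. Only 2.05% of the genes tested had a difference of larger size between these sets. The sets were formed from the same expression values, so a gene of large spread can differ between them in part by construction. Such shares are descriptions, here and for the other genes. The means were 1.61 ± 0.522 CPM in the 4 libraries and 22.8 ± 12.4 CPM in the other 19. The apart set holds pregnant and non-pregnant cows in equal number, and its part in the COL26A1 levels was not tested.

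MYH10 (ENSBTAG00000021151) codes for the heavy chain of non-muscle myosin IIB, a motor that pulls on actin filaments in cell contraction, migration and division. It was read at 207 ± 67.3 CPM (SD, n = 23), from 69.5 CPM in non-pregnant 6 to 337 CPM in pregnant 17. Pregnant cows had a lowest value of 93.5, a median of 219.8 and a highest value of 337 CPM, and non-pregnant cows had 69.5, 197.5 and 238.8 CPM. The top of the range held pregnant cows alone, with 5 of 12 above every non-pregnant cow, while the lower part was shared. Among the 4 libraries apart, 3 gave the lowest MYH10 values of all (69.5, 93.5 and 111 CPM) and the fourth of them, non-pregnant 4, had the highest value of the non-pregnant group. Of all genes tested, 26.9% differed more than MYH10 between the apart and the other libraries.

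PPIC (ENSBTAG00000001568) codes for cyclophilin C, a peptidyl-prolyl isomerase that helps proteins fold in the secretory pathway and binds cyclosporin A. It had the lowest coefficient of variation of the 4 genes, 29.3%, at 42.2 ± 12.4 CPM (SD, n = 23). The lowest, median and highest values were 15.0, 42.8 and 77.0 CPM in pregnant cows and 28.3, 42.7 and 52.4 CPM in non-pregnant cows. The pregnant cows reached beyond the non-pregnant cows at both ends, with 3 above all of them and 1, pregnant 22, below all of them, and the medians were nearly equal. Pregnant 22 is among the libraries apart, and the other 3 of that set had 28.9, 32.1 and 52.4 CPM.

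TMEM45A (ENSBTAG00000004459) codes for a protein that crosses the membrane several times. It was read at 42.9 ± 15.7 CPM (SD, n = 23). Pregnant cows had a lowest value of 13.4, a median of 50.1 and a highest value of 73.2 CPM, and non-pregnant cows had 19.2, 39.0 and 67.8 CPM. Of the pregnant cows, 9 of 12 were above the non-pregnant median, but 1 non-pregnant cow, non-pregnant 9, was above all pregnant cows except pregnant 7 and 17. The libraries apart lay within the range of the others for this gene (23.0, 35.2, 41.0 and 47.6 CPM), and 72.4% of the genes tested differed more between these sets. The 2 cows with the lowest TMEM45A were pregnant 21 and non-pregnant 19, and neither is in the set apart.

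**Figure D1:**
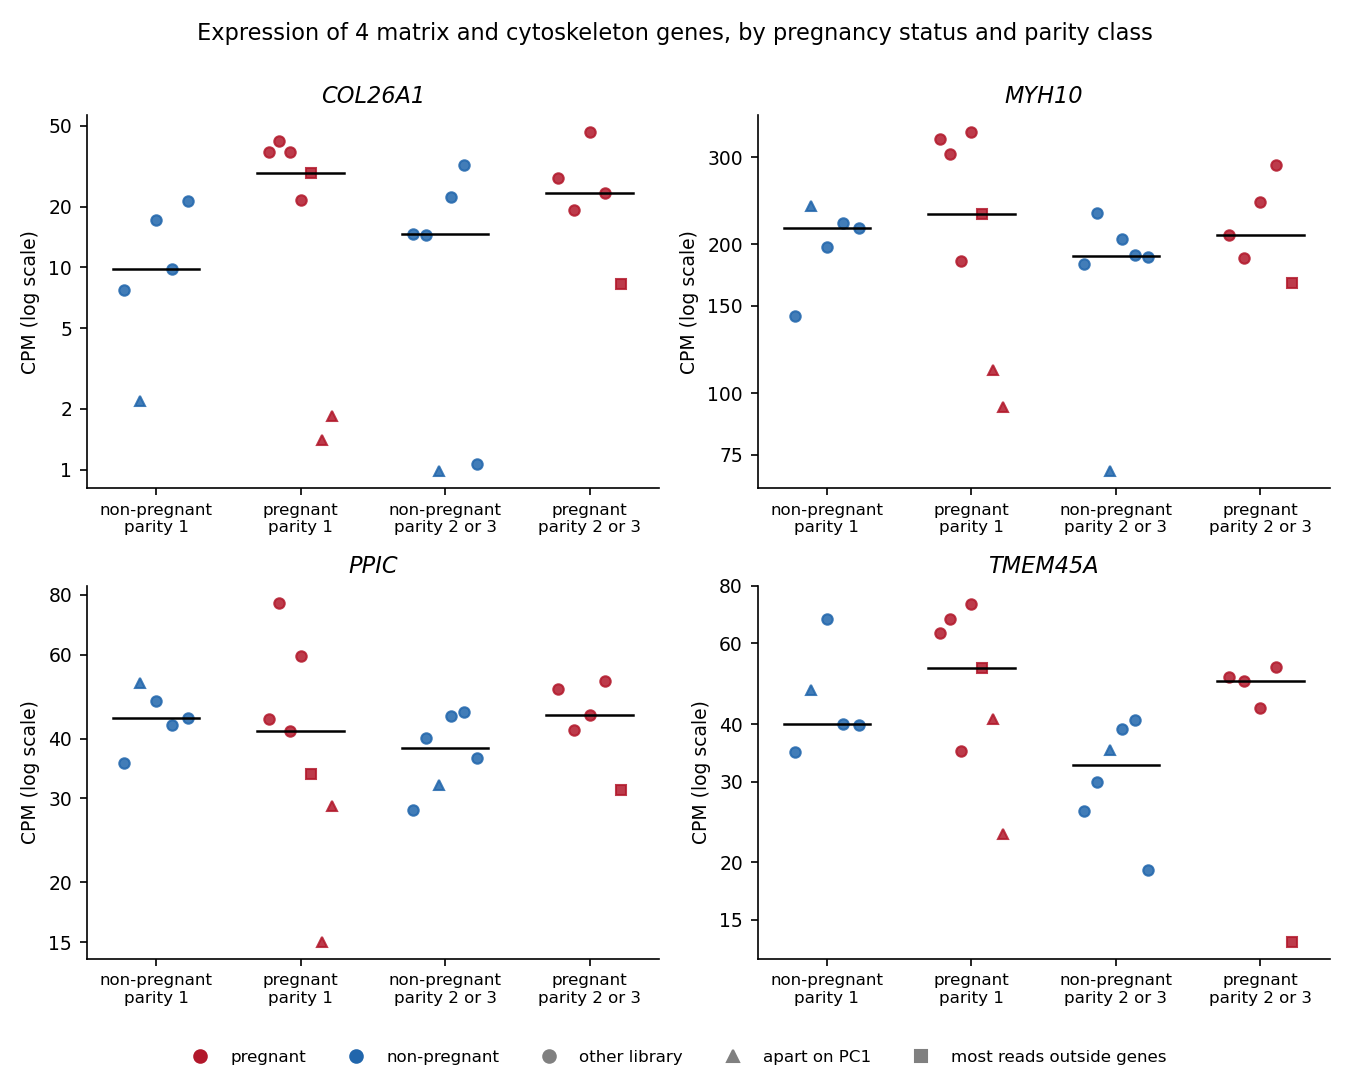
CPM of COL26A1, MYH10, PPIC and TMEM45A on a log scale in each of the 23 cows, by pregnancy status and parity class, with triangles for the 4 libraries apart on the first principal component and squares for the 2 libraries with most reads outside genes. COL26A1 has a low set of 5 cows between 0.986 and 2.18 CPM, while the groups overlap for all 4 genes.

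**Figure D2:**
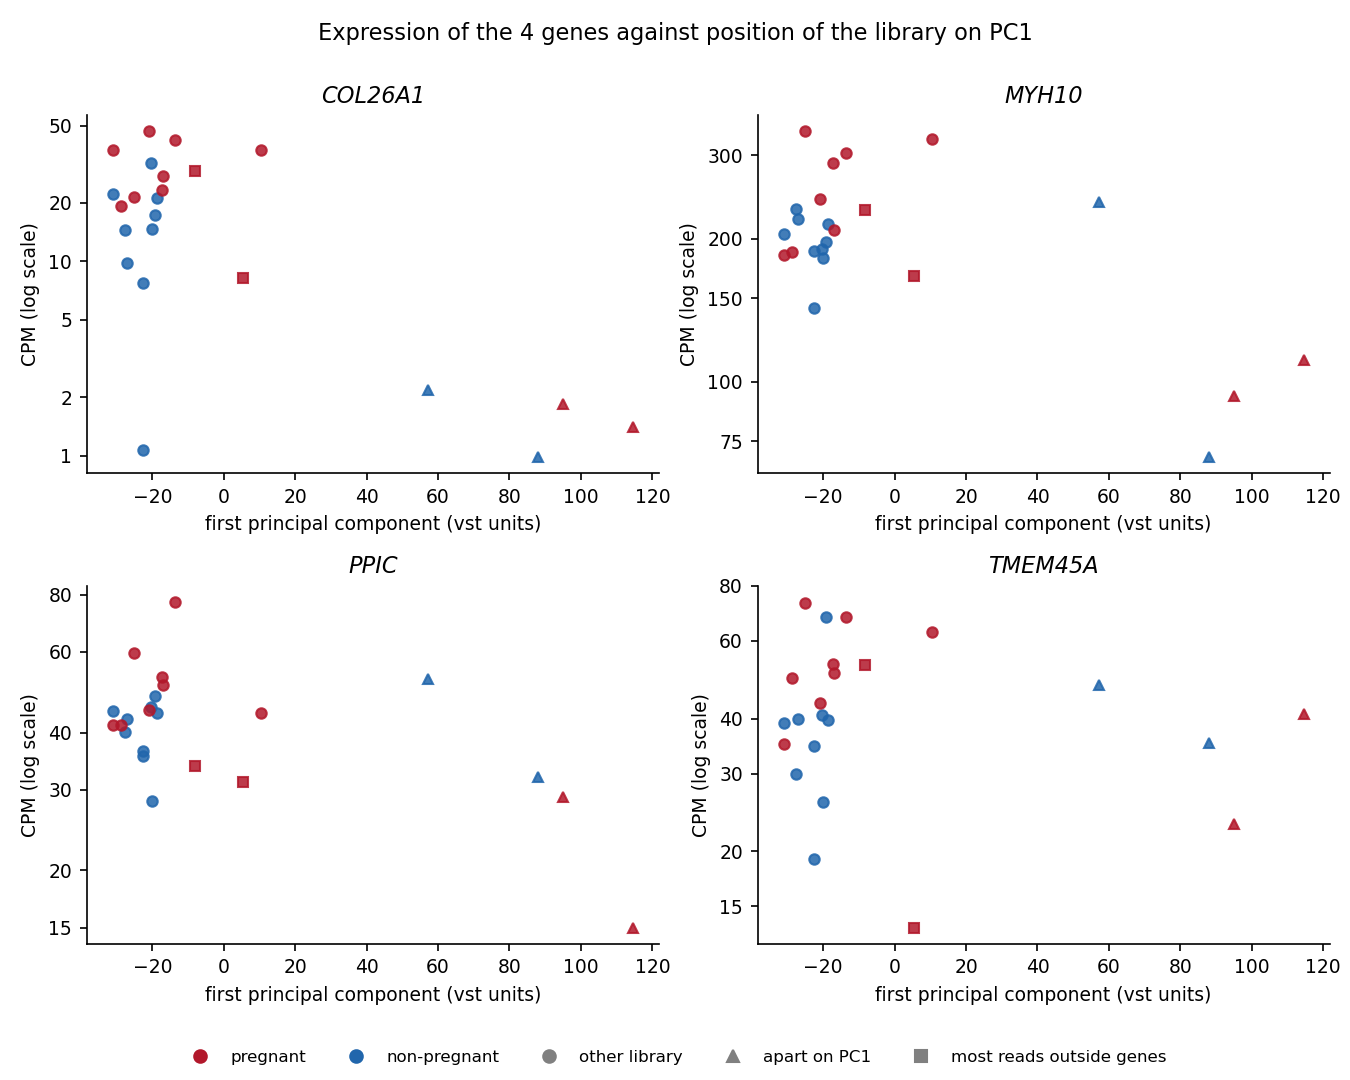
CPM of the 4 genes (log scale) against the score of each library on the first principal component of all expressed genes, coloured by pregnancy status. The 4 libraries at scores of 57.1 and above are at the bottom of the COL26A1 range, while for TMEM45A they lie within the range of the other 19.

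The spread between cows was set against that of the 500 genes nearest in mean level. The SD of COL26A1 within the pregnancy groups was 1.71 on the log2 scale, above 97.4% of these neighbours, and 1.10 without the 4 libraries apart, above 97.2% of them. Without non-pregnant 19 as well, it was 0.70, above 91.8% of them. MYH10 and PPIC had SDs of 0.55 and 0.47, above 79.8% and 73.4% of genes of like level, which became 0.30 and 0.32, above 59.0% and 59.6%, without the 4 libraries. TMEM45A kept its spread when these libraries were left out, at 0.60 with them and 0.61 without them, and its place among genes of like level went from 81.0% to 92.8%. It was 0.42, above 85.4% of them, without pregnant 21 as well. The spread of COL26A1 among the 19 cows thus rested in good part on 1 low cow, and that of MYH10 and PPIC was smaller without the 4 libraries.

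For pregnant over non-pregnant cows, the log2 fold change was 0.91 (SE 0.55) for COL26A1, 0.24 (SE 0.21) for MYH10, 0.09 (SE 0.18) for PPIC and 0.31 (SE 0.22) for TMEM45A. All 4 had the direction for which the study listed them, on cows that in part had entered that listing. Of all genes tested, 56.1% had a positive log2 fold change. Across all genes, edgeR's quasi-likelihood test with Benjamini-Hochberg adjustment called 0 of 14852 genes (0%), with 1556 genes at an unadjusted p under 0.05, and DESeq2 called 10 genes (0.0673%). No reading about the 4 genes is taken from these counts, since this contrast chose them.

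Leaving out the 6 libraries that stood apart or had most reads outside genes gave a larger difference for each gene. The log2 fold changes were then 1.01 (SE 0.38) for COL26A1, 0.38 (SE 0.13) for MYH10, 0.33 (SE 0.13) for PPIC and 0.52 (SE 0.20) for TMEM45A. COL26A1 was at 31.9 ± 10.3 CPM in the 8 remaining pregnant cows and 15.6 ± 9.08 CPM in the 9 remaining non-pregnant cows, and PPIC was at 51.6 ± 12.1 and 40.6 ± 6.18 CPM. Single cows weighed on the smaller differences. That of PPIC was -0.0166 without pregnant 7 and 0.17 without pregnant 22, and that of MYH10 was 0.13 without non-pregnant 6. Of the 6 libraries, 4 are from pregnant and 2 from non-pregnant cows, and their part in the differences was not tested. The 8 and 9 cows that remain without them match in number the 8 receptive and 9 non-receptive Holstein cows of the study's selection. The labels do not give whether they are the same cows. The larger differences without the 6 libraries can thus not be taken as independent of the choice of the genes.

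Parity, which had played no role in choosing the genes, was compared as parity 2 or more against parity 1, with pregnancy status as a covariate. By edgeR's quasi-likelihood test 0 of the 4 genes passed, and the share of all genes called was 0% (520 genes at an unadjusted p under 0.05, and 0 called by DESeq2). TMEM45A had the largest difference of the 4, with 48.8 ± 16.0 CPM (SD, n = 12) at parity 1 and 36.4 ± 13.1 CPM (SD, n = 11) at parity 2 or more. The lowest, median and highest TMEM45A values were 23.0, 44.3 and 73.2 CPM at parity 1 and 13.4, 39.0 and 53.2 CPM at parity 2 or more. The ranges overlapped, and 9 of 12 first-parity cows were above the median of the older cows.

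The log2 difference of TMEM45A by parity was -0.40 (SE 0.21, 95% interval -0.84 to 0.04, adjusted p = 0.981 by edgeR's quasi-likelihood test). Of all genes tested, 5.80% had a smaller p. The difference was -0.51 without the 4 libraries apart, -0.42 without the 6 libraries and -0.30 without pregnant 20 and 21 alone. For MYH10 the log2 difference was -0.12 (SE 0.21, interval -0.55 to 0.32), and for PPIC it was -0.09 (SE 0.18, interval -0.47 to 0.29), with adjusted p = 0.983 for both by edgeR's quasi-likelihood test. COL26A1 had like means in both parity classes, 19.1 ± 14.8 and 19.1 ± 13.6 CPM, but its interval was wide, from -1.01 to 1.33 around 0.16 (SE 0.56, adjusted p = 0.994 by edgeR's quasi-likelihood test).

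The 4 combinations of pregnancy status and parity class put the genes in different orders. For COL26A1 the means were 25.0 and 24.4 CPM in pregnant cows of parity 2 or more and of parity 1, then 14.3 and 11.6 CPM in the non-pregnant cows of the same classes. For TMEM45A both first-parity sets came first, at 50.8 CPM with pregnancy and 46.0 CPM without it, followed by 42.1 and 31.7 CPM at parity 2 or more. Neighbours in the order of each gene were closer than the smaller of their SDs, with 1 exception. This was the step of 10.4 CPM in TMEM45A between pregnant and non-pregnant cows of parity 2 or more, where the smaller SD was 8.27 CPM. An SD between cows does not measure the uncertainty of a difference of means. The fitted log2 difference by status in this class was 0.41 (SE 0.31, interval -0.23 to 1.06). Pregnancy status had also chosen the genes, so the step is a description without a test.

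Single values show what these means rest on. TMEM45A in the 5 pregnant cows of parity 2 or more was 13.4 CPM in pregnant 21, 43.4 in pregnant 15, 49.6 in pregnant 11, 50.7 in pregnant 10 and 53.2 in pregnant 18. A single low cow thus lay below 4 cows close together. COL26A1 in the 5 non-pregnant cows of parity 1 was 2.18 CPM in non-pregnant 4, 7.78 in non-pregnant 2, 9.79 in non-pregnant 13, 17.2 in non-pregnant 9 and 21.3 in non-pregnant 16. These were spread evenly, with the library apart at the bottom.

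Whether the difference by pregnancy status depended on parity was tested as an interaction. No member of the 4 was called by edgeR's quasi-likelihood test, with 0% of all genes called (443 genes at an unadjusted p under 0.05, and 0 called by DESeq2). The interaction of COL26A1 was -0.25 on the log2 scale (SE 1.15, interval -2.64 to 2.13, adjusted p = 0.992 by edgeR's quasi-likelihood test), from differences by pregnancy status of 1.06 (SE 0.82) at parity 1 and 0.81 (SE 0.82) at parity 2 or more. The interactions of MYH10, PPIC and TMEM45A were 0.14 (SE 0.43), 0.28 (SE 0.37) and 0.27 (SE 0.43), each with adjusted p = 0.988 by edgeR's quasi-likelihood test. Without the 4 libraries apart, the interactions of MYH10 and PPIC were -0.37 (SE 0.26) and -0.0774 (SE 0.30), of opposite sign. PPIC had log2 differences by status of -0.06 at parity 1 and 0.23 at parity 2 or more, opposite in sign and both smaller than their SEs.

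The time from calving to transfer was fitted as a slope per 50 days, with pregnancy status as a covariate. Again 0 of the 4 were called by edgeR's quasi-likelihood test, with 0% of all genes called (339 genes at an unadjusted p under 0.05, and 0 called by DESeq2). The slope of COL26A1 was 0.29 on the log2 scale (SE 0.27, interval -0.27 to 0.85, adjusted p = 1.00 by edgeR's quasi-likelihood test). The 3 cows with the longest intervals, of 261, 261 and 274 days, had COL26A1 at 42.0, 32.1 and 46.6 CPM. The 3 with the shortest, of 128, 130 and 139 days, had 21.5, 21.3 and 7.78 CPM. The longest intervals thus went with 3 of the 5 highest COL26A1 values, while all 5 cows of the low set lay between 173 and 219 days.

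The other 3 genes had small slopes with intervals on both sides of 0. The log2 slope per 50 days was 0.07 (SE 0.11, interval -0.16 to 0.30) for MYH10, 0.09 (SE 0.10, interval -0.11 to 0.30) for PPIC and 0.04 (SE 0.13, interval -0.22 to 0.30) for TMEM45A. The highest MYH10 and TMEM45A values were both in pregnant 17, the cow with the shortest interval of 128 days, and the highest PPIC value was in pregnant 7, at 261 days.

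**Figure D3:**
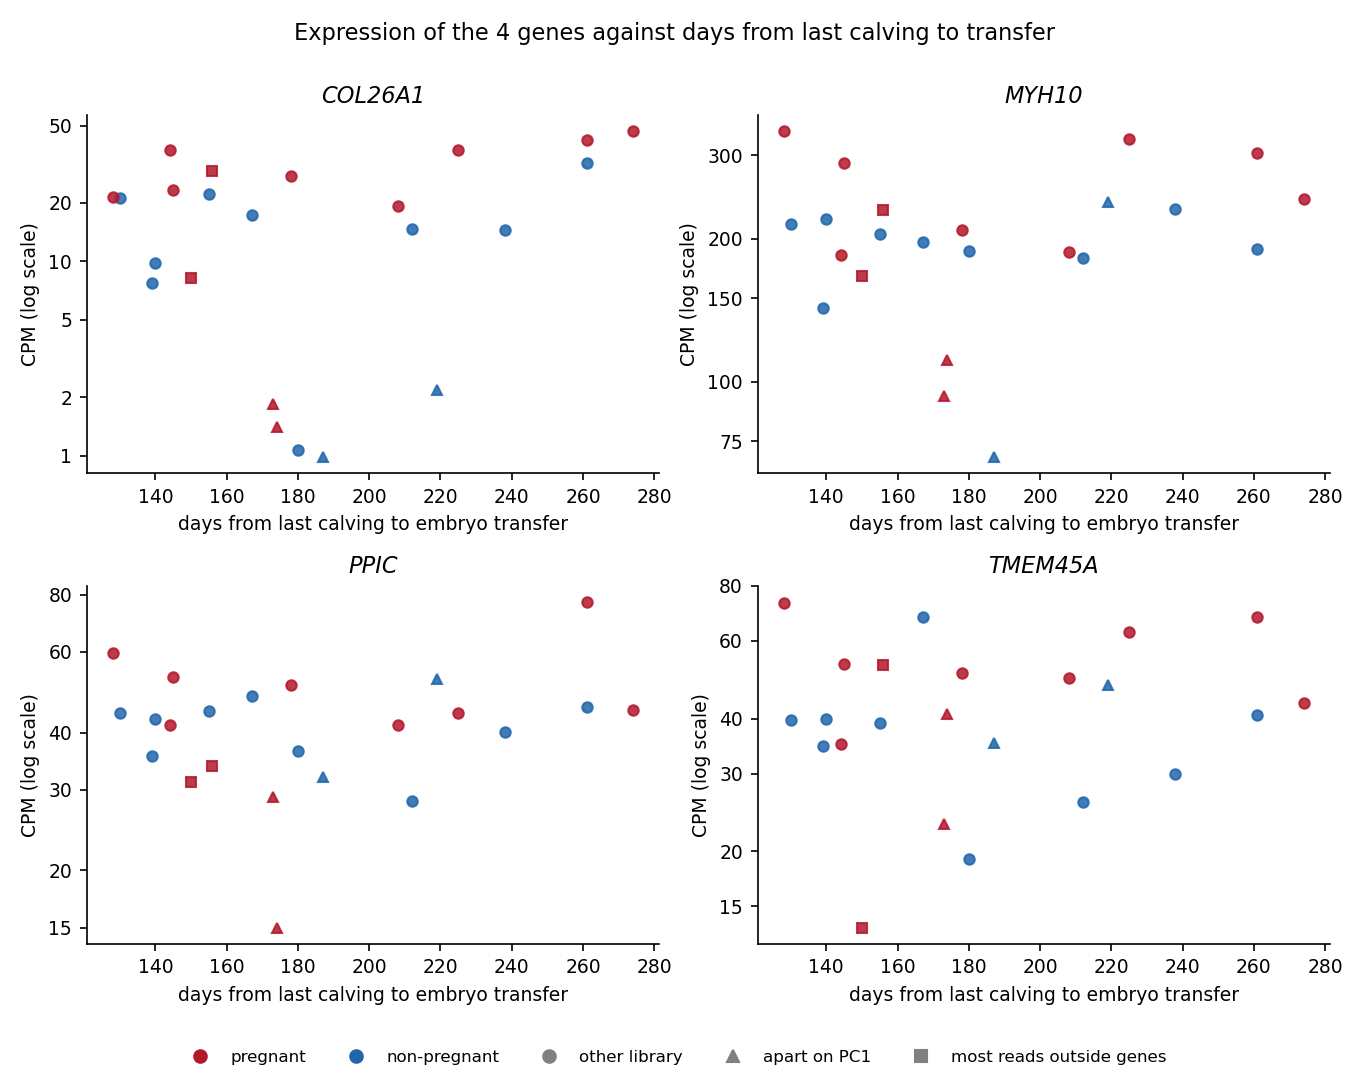
CPM of the 4 genes (log scale) against days from last calving to embryo transfer in the 23 cows, coloured by pregnancy status, with the libraries apart as triangles and those with most reads outside genes as squares. The 3 cows at 261 to 274 days have 32.1 to 46.6 CPM of COL26A1, and its 5 lowest values lie between 173 and 219 days.

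**Figure D4:**
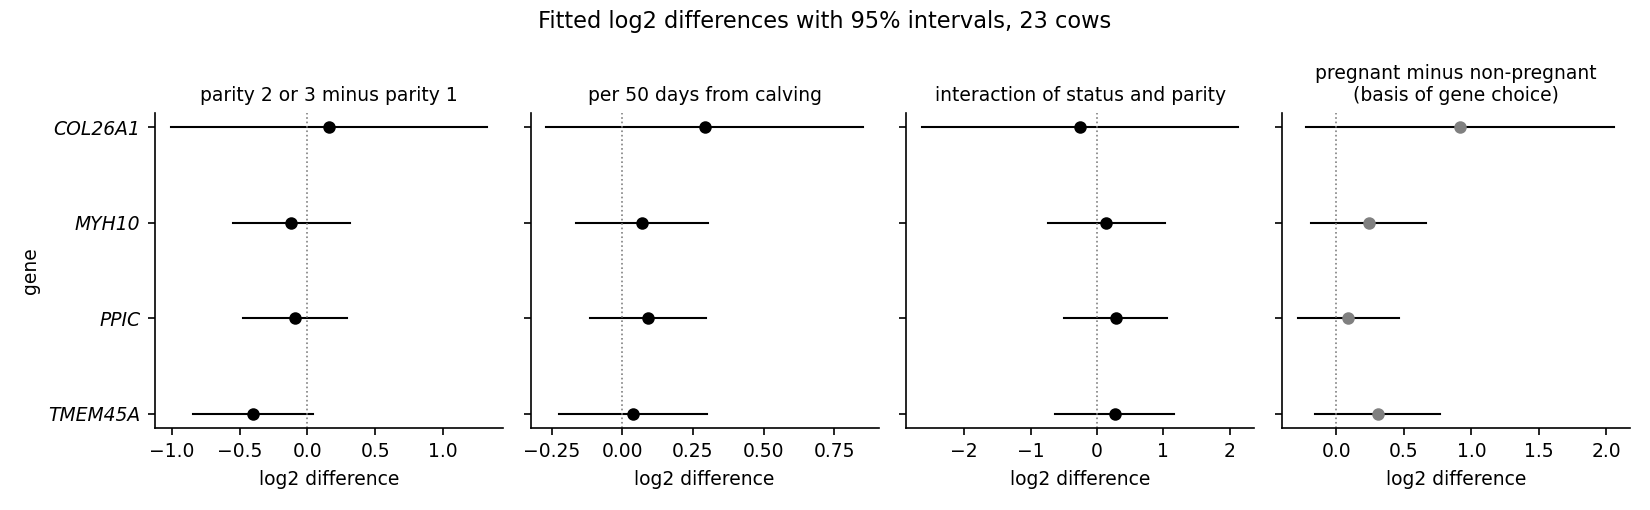
Log2 differences of the 4 genes with 95% intervals, from edgeR's quasi-likelihood fit over 23 cows. Panels show parity 2 or more against parity 1, 50 more days from calving, and the interaction of status and parity class. A further panel with grey points gives pregnant minus non-pregnant cows, the basis of the gene choice, as a description without a test. The intervals include 0, and those of COL26A1 are the widest.

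Among the 19 cows outside the set apart, and with the group means of pregnancy status removed, MYH10, PPIC and TMEM45A varied together from cow to cow. All 3 pairs of these genes were correlated after adjustment over the 6 pairs of the 4 genes (two-sided permutation test within the pregnancy groups). PPIC with TMEM45A had Pearson's r = 0.695 (permutation p = 0.0023, adjusted 0.0111) and Spearman's rho = 0.751 (permutation p = 0.0006, adjusted 0.0036). MYH10 with PPIC had r = 0.629 (permutation p = 0.00974, adjusted 0.0146) and rho = 0.714 (permutation p = 0.00198, adjusted 0.00594). MYH10 with TMEM45A had r = 0.600 (permutation p = 0.00533, adjusted 0.0111) and rho = 0.670 (permutation p = 0.00356, adjusted 0.00712).

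Leaving out the 2 cows farthest from the median of the first gene of each pair gave r = 0.586, 0.484 and 0.373 for these pairs, in the same order, and rho = 0.659, 0.605 and 0.559. The shared cows can be named. Pregnant 5, 7, 17 and 18 were among the 5 highest cows for both MYH10 and TMEM45A over all 23 cows. This ranking is of CPM with group means not removed, and these cows are all pregnant. It thus keeps the contrast by pregnancy status that chose the genes, and cannot show a relation apart from it. All genes of a library share its RNA, depth and scaling, so values of r are read beside those of other genes. Only 0.896% of the genes tested had a higher rho with PPIC than TMEM45A had, and 0.922% had a higher rho with MYH10 than PPIC had.

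COL26A1 was less closely tied to the other 3. With MYH10 it had r = 0.296 (permutation p = 0.141, adjusted 0.141) and rho = 0.305 (permutation p = 0.174, adjusted 0.174), and with PPIC r = 0.366 (permutation p = 0.0819, adjusted 0.0982) and rho = 0.412 (permutation p = 0.0726, adjusted 0.109). With TMEM45A the r was 0.595 (permutation p = 0.00553, adjusted 0.0111) but rho was 0.354 (permutation p = 0.139, adjusted 0.167). Without non-pregnant 19 and pregnant 21, the 2 cows farthest from the median of COL26A1, this r was 0.0239, so the relation rests on those cows. Both had low COL26A1 and the lowest TMEM45A of all cows.

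**Figure D5:**
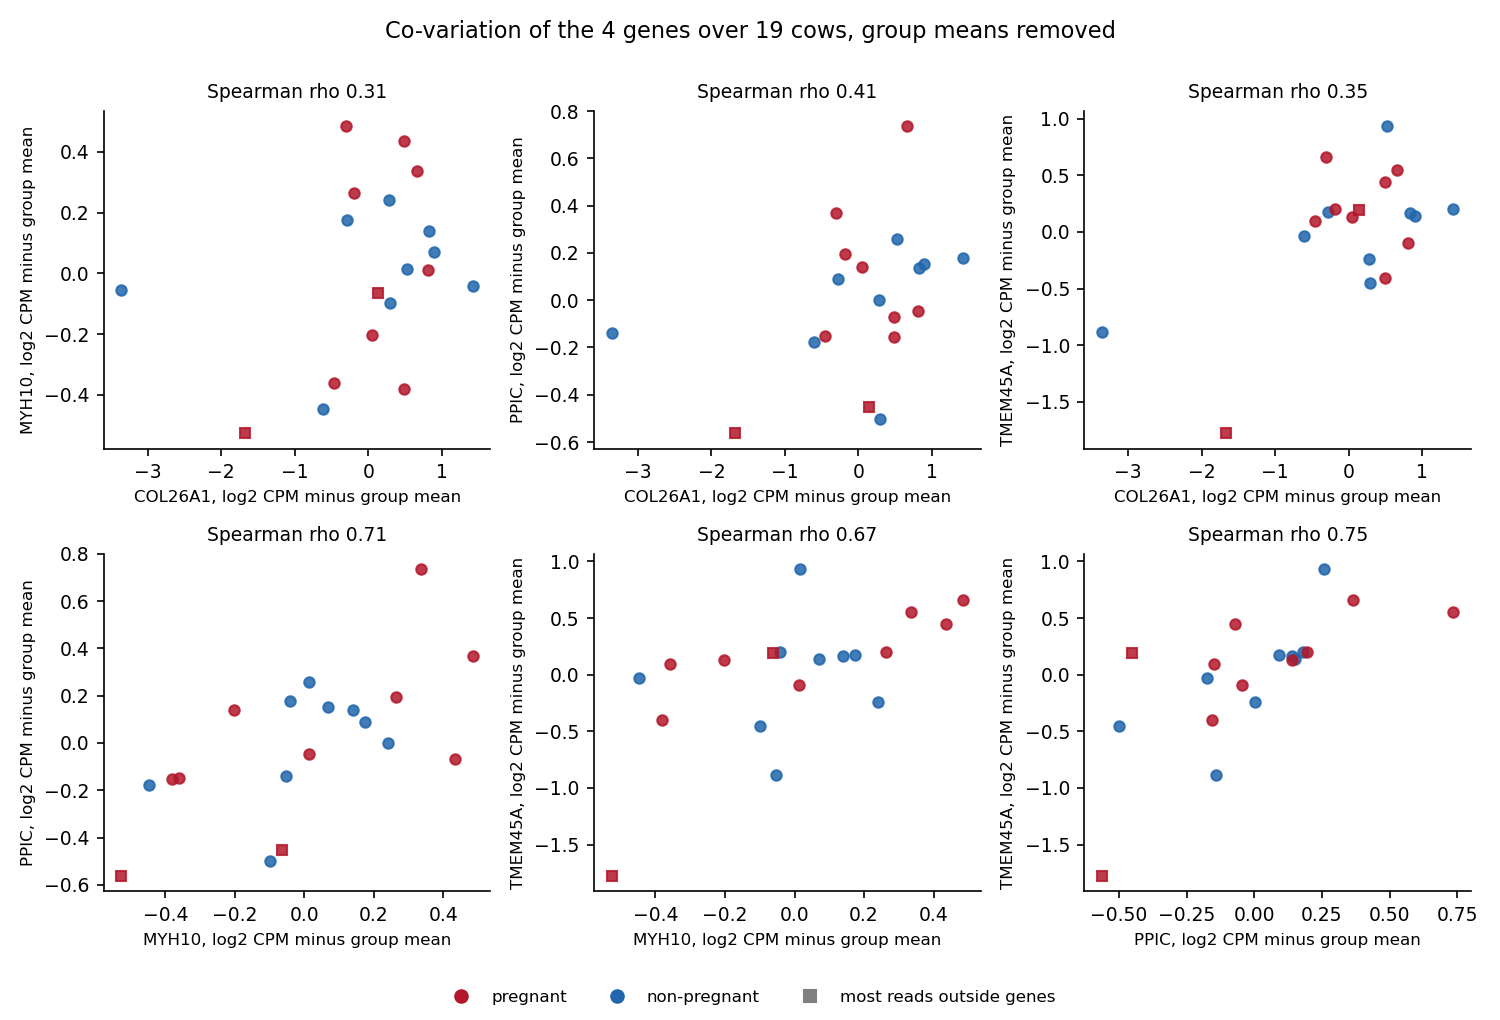
Pairwise plots of log2 CPM of the 4 genes, with the group means of pregnancy status removed, in the 19 cows outside the set apart. Points of MYH10, PPIC and TMEM45A rise together (rho 0.670 to 0.751), while the COL26A1 and TMEM45A plot is drawn out by 2 cows low in both genes.

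Genes most like each of the 4 were sought by Spearman's rho over the same 19 cows among all genes tested. The 5 most alike reached rho of 0.891 to 0.954 with PPIC, 0.846 to 0.923 with MYH10, 0.865 to 0.891 with TMEM45A and 0.784 to 0.832 with COL26A1. None of these genes has a symbol in the tables used here. The one closest to PPIC was ENSBTAG00000016481 (rho = 0.954) and the one closest to MYH10 was ENSBTAG00000014001 (rho = 0.923). COL26A1 had the weakest nearest neighbours of the 4 genes. With the 4 libraries apart included, the 5 genes kept rho of 0.827 to 0.920 with PPIC and had 0.563 to 0.781 with TMEM45A and 0.275 to 0.732 with COL26A1. For MYH10 the closest gene was at 0.815 over all 23 cows and the other 4 were at 0.323 to 0.442.

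Among the other 46 genes of the study's list, which are the ones with a symbol here, some were chosen for naming after their values were seen. RARRES1, a gene induced by retinoic acid, had rho = 0.881 with PPIC, rank 6 of 14851 genes, and 0.858 over all 23 cows. It had rho = 0.719 with TMEM45A, rank 95. CCNG2, an atypical cyclin linked to cell cycle arrest, ran opposite to 3 of the 4 genes, with rho = -0.765 with PPIC, -0.760 with TMEM45A and -0.667 with MYH10 over the 19 cows. Over all 23 cows these values of CCNG2 were weaker, at -0.356, -0.516 and -0.196. WDR20, a partner of deubiquitinating enzymes, had rho = -0.723 with COL26A1, and -0.722 over all 23 cows. The study listed RARRES1, like the 4 genes, as higher in pregnant animals, and CCNG2 and WDR20 as lower. The signs of rho follow these listed directions, and part of these cows had entered the selection. These are descriptions over 19 cows, picked from many genes, without a test.

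The same 46 genes give the direction of the other list members in the comparisons that had no role in the choice. By edgeR's quasi-likelihood test 0 of 46 passed for parity, days or the interaction, against 0% of all genes. For parity, 24 of the 46 log2 differences were positive and 22 were negative, and for days from calving 30 were positive and 16 were negative. Among the 28 of them that the study listed as higher in pregnant animals, 12 were positive for parity and 25 for days. Over all genes tested, 47.9% of the differences by parity and 52.1% of the slopes on days were positive. The listed genes were selected together and measured in the same cows, and some of them vary together. Their signs are thus not independent observations, and the counts of signs were not tested. The 4 genes had 1 positive and 3 negative values for parity and 4 positive values for days, all within their intervals around 0.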

How the data were processed

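The deposited files hold read counts per Ensembl gene, 1 file per cow. The submitters' processing notes name STAR, HTSeq and the UMD3.1 build, by which the authors made these counts. Tool versions, the annotation release and the use of strand in counting were not given in the sources used here. A stranded kit was used. In the RefSeq table (ARS-UCD2.0, used for names and neighbours only) MYH10 overlaps NDEL1, and COL26A1 and PPIC each overlap a long non-coding RNA. If strand was not used in counting, reads there may be set aside as ambiguous or counted for the wrong gene. Of the reads in a gene, outside genes or ambiguous, HTSeq called at most 0.00941% ambiguous. Rows for reads outside genes were left out of library sizes. Within groups, the closest of 121 library pairs still had a chi-square of 30.5 per degree of freedom (genes of 10 counts or more), so none was a repeat of another.

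Counts were analysed in R 4.3.3 with edgeR 4.0.16 (default expression filter by pregnancy group, TMM, quasi-likelihood test, Benjamini-Hochberg adjustment over 14852 genes at 0.05). DESeq2 1.42.0 gave a second test and the variance stabilized values for the principal components. SEs were computed as the log2 difference over the root of F. Log2 CPM used a prior count of 2. Correlations used 1e+05 resamples. The edgeR fits were tested on simulated data, and the other steps were not. Groups followed the labels, and sample numbers are those of the titles and pair no cows. COL26A1 had 20 to 1167 reads per cow. File numbers equal title numbers in 4 of 23 samples, and each file was taken for the sample it is deposited under.

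The members, gene lists and tests were chosen with earlier results of these data known. The rule named the 4 genes and the 5 genes most like each of them, by symbol where one was paired with the identifier, and genes of pathway and cell type lists. Those lists could not be applied, because symbols were paired with identifiers for 50 genes only, those of the study's list, so the tissue was not checked against its markers. No sequences are shown for the 4 genes. Alternatives were DESeq2, other scaling and filters, covariates, parity as a number, and leaving out libraries.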

Additional observations from a re-analysis of the deposited data

Results flagged for a closer look

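Each of the 4 genes was examined in the 4 sets of cows formed by pregnancy status and parity class, 16 sets of 5 to 7 cows in all, for a cow far from the rest. A cow counted as such where its gap to its neighbour, as a share of the range of the set, was above Dixon's 95% critical value for a set of its size. Chance alone gives such a cow in about 5% of sets, and 2 were found. MYH10 in non-pregnant 6 was 69.5 CPM, the lowest of the 6 non-pregnant cows of parity 2 or more, and its gap to the next cow was 0.700 of their range. This library is among the 4 that stood apart on the first principal component. TMEM45A in pregnant 21 was 13.4 CPM, the lowest of the 5 pregnant cows of parity 2 or more, with a gap of 0.751 of their range. This library had the fewest counts in genes, 6920879, and 76.7% of its reads outside genes. The part of these library features in both values was not tested.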

How the results depend on the processing

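No paired analysis was possible because sample numbers are unique across the groups and none is shared. None of the 4 genes passed for parity, days or the interaction under any alternative, and signs changed only for values that were smaller than their SEs with all cows. The cause was not tested. For parity, the log2 difference of COL26A1 was -0.0937 without the 4 libraries apart and -0.109 with days from calving added. The log2 slope of TMEM45A on days was -0.0102 without pregnant 20 and 21 and -0.0585 without the 6 libraries. For the interaction, MYH10 was at -0.366 and PPIC at -0.0774 without the 4 libraries, MYH10 at -0.342 and PPIC at -0.0943 without the 6, and COL26A1 at 0.0241 without pregnant 20 and 21. With parity as a number the interaction of MYH10 was -0.0263, and with days added that of COL26A1 was 0.0636. By pregnancy status DESeq2 called 10 genes, against 0 by edgeR.

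For the correlations, rho of COL26A1 passed over all 23 cows with MYH10 (0.466) and PPIC (0.481). This setting pools the libraries apart, in which COL26A1 was lower, with the rest, so no relation between the genes is read from it. With group means not removed, rho of COL26A1 passed with MYH10 (0.509), PPIC (0.532) and TMEM45A (0.577). All of these genes were chosen as higher in pregnant animals, and these values keep that contrast, so they cannot show a relation apart from it. By rho, the 3 pairs among MYH10, PPIC and TMEM45A passed under every alternative that was tested, including those with group means removed and the libraries apart left out. The setting without the 2 cows farthest from the median had no test. There r of MYH10 with TMEM45A was 0.373 and rho was 0.559.

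Leaving out 1 cow at a time gave these ranges. The parity difference was -0.0270 to 0.299 for COL26A1, -0.179 to -0.0264 for MYH10, -0.168 to 0.00913 for PPIC and -0.457 to -0.299 for TMEM45A. The slope per 50 days was 0.154 to 0.380 for COL26A1, 0.0321 to 0.133 for MYH10, -0.00506 to 0.140 for PPIC and -0.0225 to 0.105 for TMEM45A. The interaction was -0.603 to 0.173 for COL26A1, -0.0283 to 0.276 for MYH10, 0.136 to 0.491 for PPIC and 0.0824 to 0.488 for TMEM45A. The difference by pregnancy status was 0.765 to 1.12 for COL26A1, 0.131 to 0.304 for MYH10, -0.0166 to 0.173 for PPIC and 0.217 to 0.423 for TMEM45A, with 0 to 1 genes called (1 without pregnant 8). The Spearman correlation of COL26A1 with PPIC was 0.288 to 0.507 and passed only without pregnant 17 (permutation test, adjusted p = 0.048). The 3 pairs among MYH10, PPIC and TMEM45A passed without any single cow (rho 0.569 to 0.833). The SD of COL26A1 among the 19 cows, an alternative chosen after seeing the data, was 0.695 to 1.13 without 1 cow, lowest without non-pregnant 19.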
